A study of Homo sapiens with 4 samples.

Results

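The subtelomeric H2AK119ub peaks are the peaks whose midpoint lies within 3 Mb of an end of chromosomes 1 to 22 in the hg38 assembly. The short-arm ends of chromosomes 13, 14, 15, 21 and 22 were left out, which leaves 39 ends. By this rule 3978 of 34393 peaks of the knockdown list and 3757 of 32798 peaks of the wild-type list are subtelomeric. They are set beside the other 30119 knockdown and 28694 wild-type peaks of the same chromosomes. The groups are H1 cells carrying an shRNA that targets YTHDF1 (knockdown) and untreated H1 cells (wild type). H1 is an established human embryonic stem cell line, and mTeSR1 medium was used throughout. For knockdown and for wild-type cells alike there is 1 H2AK119ub ChIP library and 1 input library, and the input libraries were not analysed here. Without replicates no spread is known, and no difference was tested. A peak list shows neither RNA levels nor cell type markers, so neither the loss of YTHDF1 nor the cell identity was checked.

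H2AK119ub is histone H2A carrying a single ubiquitin on a lysine of its C-terminal tail. Polycomb repressive complex 1 attaches it, and in embryonic stem cells it is best known from the CpG-rich promoters of silent developmental genes. YTHDF1 is a cytoplasmic protein that binds messenger RNA methylated on adenosine (m6A). Human chromosome ends carry telomere repeats. The sequence next to them is a patchwork of duplicated segments with small gene families, and many human chromosome ends are rich in genes and in G and C bases. Repeats and duplicated segments limit where short reads can be placed, and the sources used here do not say how multiply mapped reads were treated.

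The stretches before the start sites of 4 subtelomeric genes show the kind of sequence that lay in these peaks. They were taken from the gene groups described below, among genes whose promoter sequence was at hand. KLF16 and SAMD11 had the longest covered length there, PLCH2 the largest decrease and FOXK2 the largest increase. Each sequence, from RefSeq on GRCh38.p14, gives the 250 bases before the start of the transcript in that table, 5′ to 3′ on the gene's strand, with CpG dinucleotides in capitals. The transcript starts of KLF16, SAMD11 and PLCH2 lie inside the annotated gene, for KLF16 and PLCH2 more than 10 kb from its ends. All 250 bases lay inside a peak in both lists for each of these 4 genes, so the difference at FOXK2 lay outside its stretch. The decrease at PLCH2 was counted within 10 kb of the annotated gene ends, and its stretch lies outside those windows. KLF16, a zinc finger transcription factor gene, has 45 CpG and 86.4% G+C (chr19:1863580-1863829, minus strand). SAMD11 has 32 CpG and 75.6% G+C (chr1:925481-925730, plus strand). PLCH2, a phospholipase C gene, has 14 CpG and 70.8% G+C (chr1:2467201-2467450, plus strand). FOXK2, a forkhead transcription factor gene, has 43 CpG and 77.2% G+C (chr17:82519482-82519731, plus strand).
KLF16: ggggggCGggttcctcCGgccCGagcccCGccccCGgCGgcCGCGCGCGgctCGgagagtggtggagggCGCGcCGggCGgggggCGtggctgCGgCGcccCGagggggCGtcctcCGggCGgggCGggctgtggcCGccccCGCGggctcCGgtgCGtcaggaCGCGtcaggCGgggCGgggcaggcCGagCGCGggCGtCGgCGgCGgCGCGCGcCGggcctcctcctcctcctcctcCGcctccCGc
SAMD11: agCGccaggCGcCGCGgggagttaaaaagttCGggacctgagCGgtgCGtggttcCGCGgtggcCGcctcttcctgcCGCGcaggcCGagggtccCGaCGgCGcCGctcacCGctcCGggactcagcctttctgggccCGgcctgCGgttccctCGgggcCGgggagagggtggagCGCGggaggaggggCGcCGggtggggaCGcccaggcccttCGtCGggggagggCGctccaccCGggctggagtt
PLCH2: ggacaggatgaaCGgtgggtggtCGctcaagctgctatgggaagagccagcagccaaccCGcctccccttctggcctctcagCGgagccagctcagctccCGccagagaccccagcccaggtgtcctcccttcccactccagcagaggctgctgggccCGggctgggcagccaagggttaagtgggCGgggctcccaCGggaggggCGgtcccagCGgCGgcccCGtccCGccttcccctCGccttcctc
FOXK2: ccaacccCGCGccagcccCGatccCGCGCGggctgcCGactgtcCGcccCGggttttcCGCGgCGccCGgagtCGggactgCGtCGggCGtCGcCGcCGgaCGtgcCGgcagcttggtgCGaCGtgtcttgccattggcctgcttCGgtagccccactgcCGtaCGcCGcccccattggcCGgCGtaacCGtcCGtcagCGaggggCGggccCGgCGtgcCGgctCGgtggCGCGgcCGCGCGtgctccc

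The first question was how much of the chromosome ends the mark covered. Peaks were denser near the ends than elsewhere in both lists. The 39 windows make up 4.07% of the autosomal length but held 11.7% of knockdown and 11.6% of wild-type autosomal peaks. Peaks covered 19.4% of the windows in knockdown cells and 22.8% in wild-type cells, against 5.23% and 6.05% of the rest of the autosomes. This rest is the full hg38 length outside the windows, so it includes the left-out short arms, whose ends held no peak in either list. Whether reads can be placed in these short arms was not checked. There were 34.0 peaks per Mb in knockdown cells and 32.1 in wild-type cells near the ends, and 10.9 and 10.4 elsewhere. Subtelomeric peaks were also wider than the others. Their median width was 4.0 kb in knockdown cells and 4.8 kb in wild-type cells, while that of the other peaks was 3.6 and 4.2 kb.

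The score, the authors' own value per peak whose unit the labels do not state, ran higher near the ends within each list. Subtelomeric peaks had a median score of 19.6 in the knockdown list, where the other peaks had 14.2. In the wild-type list the medians were 21.4 for subtelomeric and 15.9 for other peaks. Of the 10% of autosomal peaks with the highest scores, 20.03% in knockdown cells and 18.98% in wild-type cells were subtelomeric. The ceiling of 1000 was reached by 142 subtelomeric peaks in knockdown cells (3.57%, against 1.64% of the other peaks). In wild-type cells 210 subtelomeric peaks reached it (5.59%, against 2.69%). Scores of the 2 lists were not compared with each other.

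Between the libraries, the subtelomeric peaks of the knockdown were more numerous, narrower and covered less DNA. They numbered 5.88% more, covered 22.7 Mb against 26.6 Mb in wild-type cells (-14.7%), and had a mean width of 5.71 kb against 7.09 kb (-19.5%). The other autosomal peaks differed in nearly the same way, with 4.97% more peaks, -13.5% in covered length and -17.6% in mean width. The difference near the ends minus that elsewhere was -1.24 percentage points, a value that turned positive under 3 of 7 alternatives given in the closing section. Without peaks under 2 kb the number of subtelomeric peaks was 0.112% higher in knockdown cells, against 5.88% with them.

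Coverage was highest a short way in from the end. It was 14.4% in knockdown cells and 16.9% in wild-type cells in the outermost 0.5 Mb, the means over 39 ends. It reached 24.7% and 28.8% between 0.5 and 1 Mb, and stood at 23.7% and 27.1% between 1.5 and 2 Mb. Between 2.5 and 3 Mb it was 13.5% and 16.3%, and between 9.5 and 10 Mb 9.10% and 10.4%. The knockdown list covered less in all 20 steps of 0.5 Mb, with differences of -12.5% to -17.7% within 3 Mb and of -5.49% to -20.9% from 3 to 10 Mb. Protein-coding genes numbered 18.9 per Mb in the outermost step, 19.5 between 0.5 and 1 Mb and 8.67 between 2.5 and 3 Mb. The rule's limit crosses no step in the data: 97 knockdown and 101 wild-type peaks lay between 2.9 and 3.0 Mb, with median widths of 4.2 and 4.6 kb, and 96 and 92 between 3.0 and 3.1 Mb, with 4.2 and 4.7 kb.

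**Figure D1:**
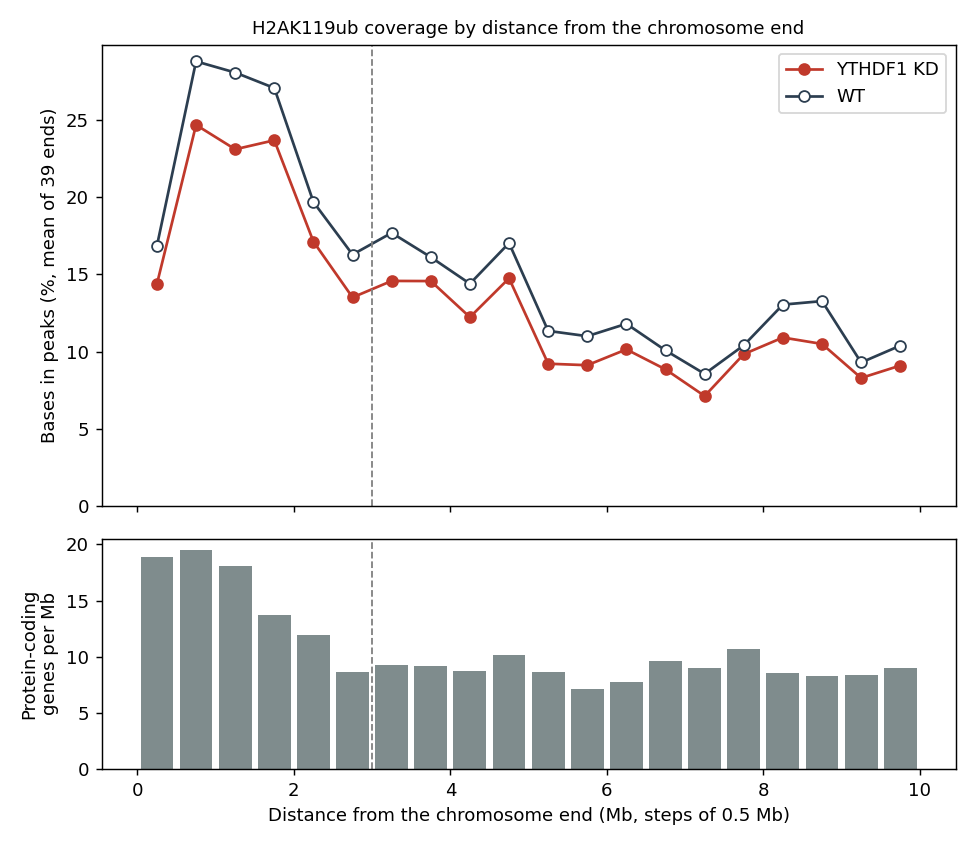
Share of bases in H2AK119ub peaks (percent, mean of 39 chromosome ends) in steps of 0.5 Mb from the end, for the knockdown (filled) and wild type (open), above the number of protein-coding genes per Mb. Both lines peak between 0.5 and 1 Mb, at 24.7% and 28.8%, and the dashed line marks 3 Mb.

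Peaks were also counted in the outermost 100 kb, where it was not checked how much of the sequence reads can reach. Of the peaks within 1 Mb of an end, 49 of 1328 in the knockdown list and 48 of 1284 in the wild-type list lay there. In each list these peaks lay at 14 of the 39 ends, with median widths of 3.4 and 3.5 kb. The nearest lay at 11q, where a knockdown peak of 0.4 kb (chr11:135075601-135076000) and a wild-type peak of 0.6 kb touched each other. Their midpoints lay 10.8 and 10.7 kb from the end. At 2p a knockdown peak of 2.6 kb (chr2:10401-13000) and a wild-type peak of 1.6 kb touched each other too, as did peaks of 1.8 and 2.6 kb at 12p. None of these 3 pairs lay within 2 kb of a protein-coding gene. A wild-type peak of 4.6 kb at 13q, 22.6 kb from the end by its midpoint, touched no knockdown peak. At 1p the first midpoint lay 0.870 Mb from the end in both lists, and at 14q, where the immunoglobulin heavy chain genes lie, 1.51 Mb.

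Gene density was set beside coverage in windows of 1 Mb, since subtelomeric windows held a mean of 15.1 protein-coding genes and other windows 6.27. At each of 5 classes of gene density, subtelomeric windows were covered more than other windows in both lists. The other windows include those of the left-out short arms. With 10 to 19 genes, 37 subtelomeric windows were covered to 22.02% in knockdown cells and 26.3% in wild-type cells, and 384 other windows to 10.9% and 12.7%. With 40 genes or more, the values were 47.3% and 52.8% in 9 subtelomeric windows and 28.8% and 32.8% in 17 others. With 0 to 4 genes they were 4.54% and 5.77% in 25 subtelomeric windows and 1.47% and 1.66% in 1484 others. The difference between the libraries showed no such separation. It was -16.4% near the ends and -14.2% elsewhere with 10 to 19 genes, -15.9% and -15.3% with 20 to 39, -10.8% and -12.1% with 5 to 9, and -10.5% and -12.2% with 40 or more. At 0 to 4 genes it was -21.4% near the ends, where 10 windows had less and 12 more in knockdown cells, and -11.6% elsewhere.

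**Figure D2:**
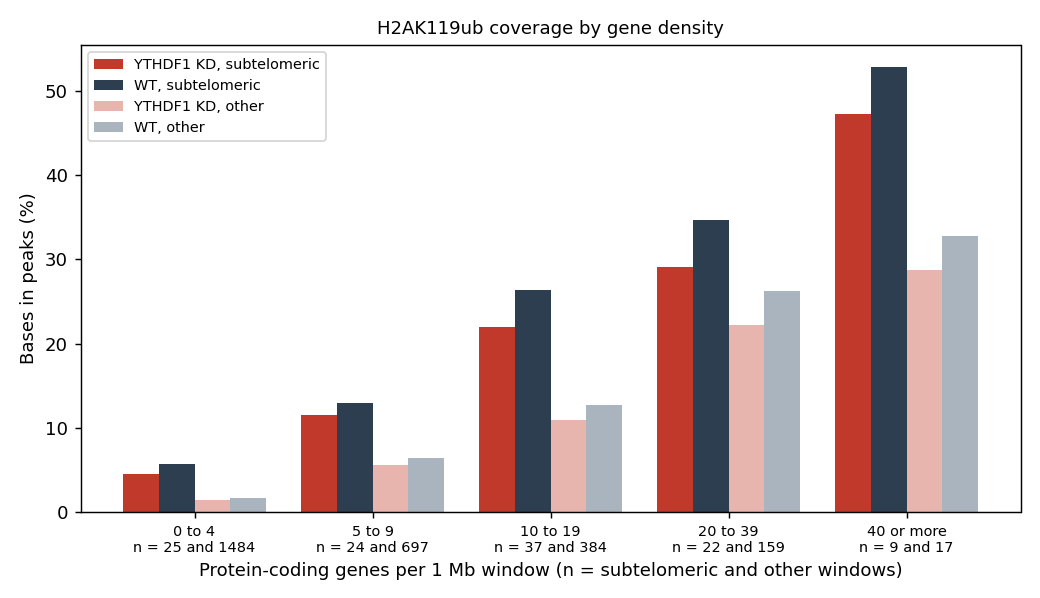
Share of bases in H2AK119ub peaks (percent) in windows of 1 Mb by their number of protein-coding genes, for subtelomeric windows (dark bars) and other autosomal windows (pale bars), knockdown left of wild type. Coverage climbed with gene density in each of the 4 series, and the dark bars stand above the pale ones in all 5 classes.

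The second question was how the single chromosome ends differed. Ends varied widely in how much of them was covered. The most covered was 19p, with 1619 kb in 219 knockdown peaks and 1822 kb in 192 wild-type peaks, and the least covered was 3p, with 15.2 and 11 kb in 2 peaks each. The median end had 16.3% of its 3 Mb in knockdown peaks and 17.9% in wild-type peaks. Covered length was lower in knockdown cells at 34 of 39 ends and higher at 5, while the rest of the chromosome was lower on all 22 autosomes. The ratio of knockdown to wild type had a median of 0.880 over the ends, with quartiles of 0.799 and 0.909. The rest of the chromosomes had a median ratio of 0.879 and ran from 0.733 to 0.947. Each of the 22 ends with 500 kb or more in wild-type peaks had a ratio between 0.704 and 0.919. The 17 ends with less spread from 0.562 to 1.38, and all 5 ends above 1 were among them.

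Against the rest of their own chromosome, 16 ends had the lower ratio and 23 the higher, with a median difference of 0.549 percentage points. In total length, 11p, 8q, 20q, 22q, 21q and 19p had the largest differences, and these 6 ends made up 42% of the -3925 kb summed over all ends. They were picked by this difference and were well covered ends. Each had 29.48% or more of its 3 Mb in wild-type peaks, where the median end had 17.9%. At 8q the difference was -20.9%, with 1252 kb in knockdown cells and 1584 kb in wild-type cells, while the rest of chromosome 8 differed by -5.29%. At 19p it went the other way, -11.1% at the end and -20.8% for the rest. At 20q, where YTHDF1 itself lies 1.24 Mb from the end, 1198 kb was covered in knockdown cells and 1461 kb in wild-type cells (-18.0%, with -10.8% for the rest of the chromosome). YTHDF1 had 17.1 kb in knockdown and 24.8 kb in wild-type peaks within 10 kb of its ends.

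**Figure D3:**
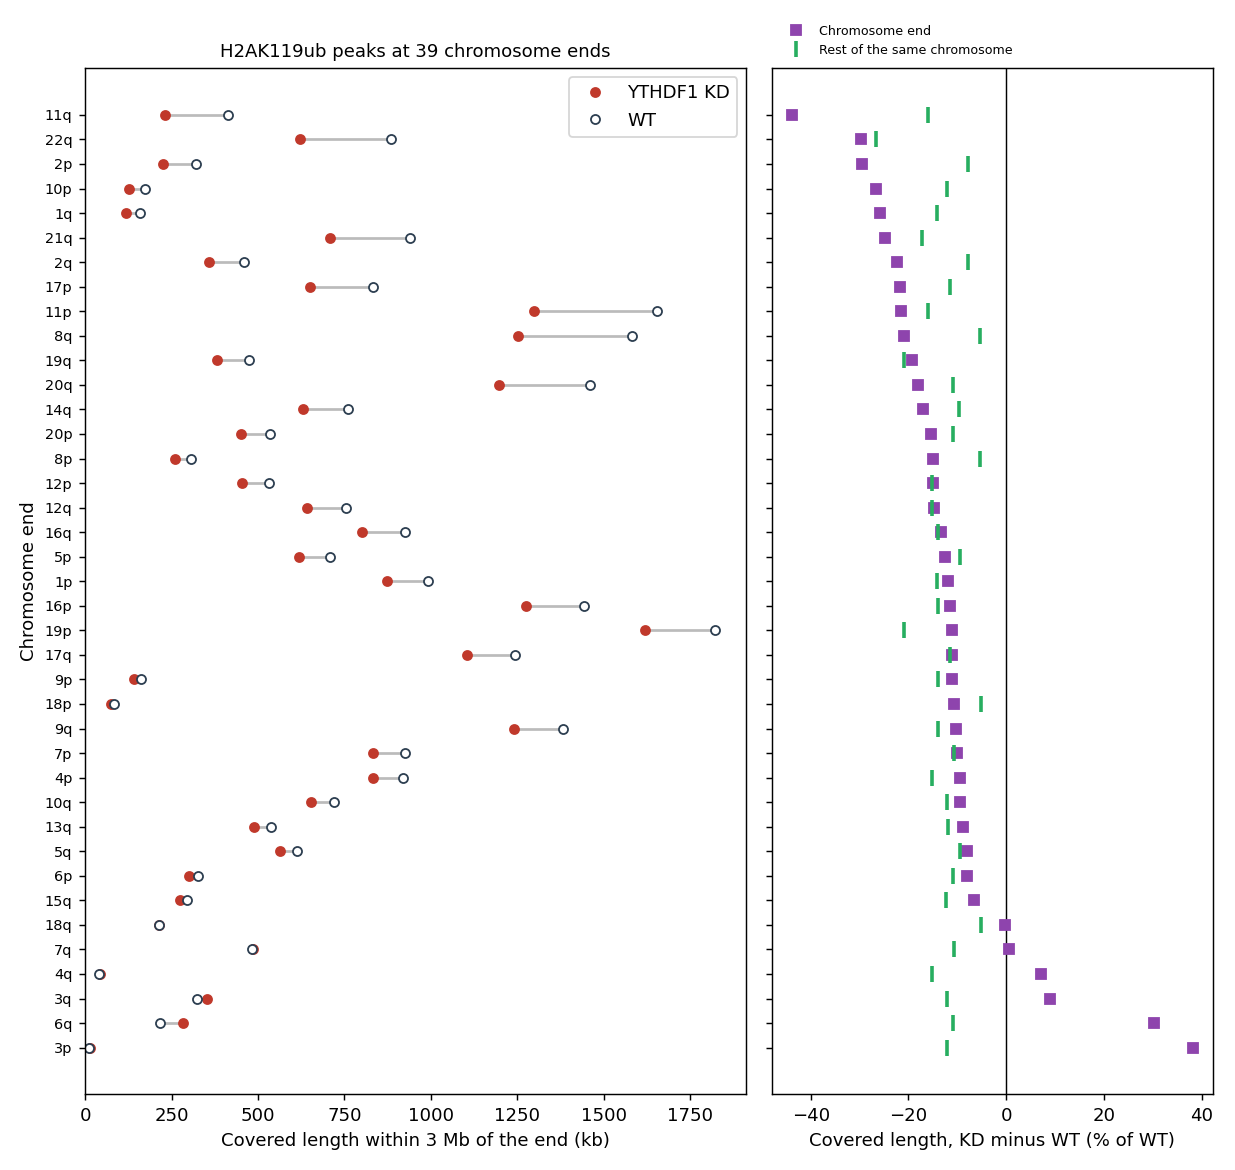
Left, covered length (kb) within 3 Mb of each of 39 chromosome ends in knockdown cells (filled) and wild type (open), sorted by their ratio. Right, the difference in percent of wild type at the end (squares) and over the rest of the same chromosome (green bars); 34 squares lie below 0, and the squares run from -43.8% at 11q to 38.2% at 3p.

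The lowest ratio was that of 11q. It had 54 peaks covering 232 kb in knockdown cells and 77 peaks covering 412 kb in wild-type cells, a difference of -43.8% against -15.9% for the rest of chromosome 11. Wild-type peaks that touched no knockdown peak made up 129 kb of this, while unshared knockdown peaks made up 31.6 kb. IGSF9B, an immunoglobulin superfamily adhesion gene, had 17.8 kb in knockdown peaks and 29.6 kb in wild-type peaks. ACAD8, an acyl-CoA dehydrogenase gene of valine breakdown, had 8.66 against 18.1 kb, and its neighbour THYN1 1.8 against 10 kb. VPS26B, which encodes a retromer subunit, had 7.0 against 14.6 kb. GLB1L3 had slightly more in knockdown cells, 17.8 against 16.9 kb.

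The next lowest ratios were those of 22q (0.704), 2p (0.706) and 10p (0.734). At 22q the difference of -29.6% was close to that of the rest of chromosome 22 (-26.7%), whereas at 2p it was -29.4% beside -7.73%. At 22q the condensin subunit gene NCAPH2 had 19.2 kb in knockdown cells and 29.96 kb in wild-type cells. A wild-type domain of 39.2 kb over NCAPH2, SCO2, TYMP and SYCE3 (chr22:50513601-50552800) met 4 knockdown peaks that covered 75.5% of it. CHKB, a choline kinase gene, had 9.4 against 17.6 kb and the muscle carnitine transferase gene CPT1B 13.4 against 21.01 kb. TTLL8, a tubulin ligase-like gene, had more in knockdown cells, 27.9 against 21.1 kb. At 2p the neuronal transcription factor gene MYT1L had none against 9.0 kb. Only 2.69 kb of this lay within 5 kb of its ends, and neither list had a peak within 2 kb of them. The phosphatase gene ACP1 on 2p had 8.28 against 15.1 kb. At 10p the oocyte tubulin gene TUBB8 had none against 3.2 kb.

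Covered length was higher in knockdown cells at 3p, 6q, 3q, 4q and 7q. Only 6q (283 against 217 kb) and 3q (353 against 324 kb) differed by more than 5 kb. 6q had 72 knockdown and 44 wild-type peaks, a difference of 30.2% in covered length where the rest of chromosome 6 had -10.9%. Unshared peaks made up 104 kb of its knockdown and 33.0 kb of its wild-type length. The widest peak at 6q, over the Notch ligand gene DLL1, measured 26.0 kb in knockdown cells and 23.4 kb in wild-type cells. WDR27 had 12.8 against 3.4 kb, and FRMD1 8.31 kb against none. PHF10, which encodes a subunit of the PBAF chromatin remodelling complex, had 11.1 against 8.0 kb. DYNLT2, a dynein light chain gene of the same end, had less in knockdown cells, 6 against 11 kb.

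At 3q, 82 knockdown and 66 wild-type peaks gave a difference of 9.01%, where the rest of chromosome 3 had -12.1%. SMCO1 had 13.8 against 4.8 kb and NRROS, which encodes a regulator of TGF-beta activation, 24.9 against 18.1 kb. PCYT1A, a phosphatidylcholine synthesis gene, had 5.4 against 1.8 kb, while ACAP2 had 5.8 against 10 kb. At 3p the only peaks lay at the neural adhesion genes CNTN4 (10.4 against 7.4 kb) and CHL1 (4.8 against 3.6 kb). At 4q, 15 knockdown peaks and 8 wild-type peaks covered 42.4 and 39.6 kb. There ZFP42, the pluripotency marker also called REX1, had 4.2 against 5.6 kb, and TRIML2 4.0 against 9.4 kb.

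The third question was whether the peaks of the lists lay in the same places. Of the subtelomeric knockdown peaks, 3208 (80.6%) overlapped a wild-type peak by 1 bp or more, where all autosomal knockdown peaks had 74.1%. Of the wild-type peaks 2793 (74.3%) touched a knockdown peak, where all autosomal wild-type peaks had 71.5%. In bases, 78.1% of the subtelomeric knockdown length lay inside wild-type peaks and 66.5% of the wild-type length inside knockdown peaks, against 69.8% and 60.4% elsewhere. The Jaccard index, the shared bases as a part of all bases covered, was 0.561 near the ends and 0.479 elsewhere. Since the ends hold more peaks, more overlap can arise there from density, and its part in these values was not tested.

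The wild-type length that was missing in knockdown cells came mostly from the edges and gaps of shared peaks. Of it, 5.26 Mb lay in wild-type peaks that touched a knockdown peak and 3.66 Mb in peaks that touched none. The knockdown in turn covered 2.62 Mb beyond shared wild-type peaks and 2.35 Mb in peaks of its own. Unshared peaks were narrower and lower in score. In the knockdown list they had a median width of 2.8 kb and a median score of 9.75, and shared ones 4.4 kb and 24.8. In the wild-type list the values were 3.6 kb and 9.73 for unshared and 5.6 kb and 30.8 for shared peaks. Of the knockdown peaks 377 touched 2 or more wild-type peaks (9.48%, and 5.94% elsewhere), and 617 wild-type peaks touched 2 or more knockdown peaks (16.4%, and 9.88% elsewhere).

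There were 1688 subtelomeric pairs whose peaks touched no other peak. The knockdown member was narrower in 1046 (62.0%, where all autosomal pairs had 59.7%). It was wider in 564 (33.4%, where all pairs had 35.8%). The median ratio of widths was 0.875, with quartiles of 0.643 and 1.13, and 0.889 for the 15103 other pairs. The largest decreases within such pairs included a peak over MYO1C and INPP5K at 17p, of 11.6 kb in knockdown cells and 23.2 kb in wild-type cells (chr17:1480001-1503200). At TMEM74B on 20p the widths were 5.8 and 16 kb, and at LSS, the lanosterol synthase gene on 21q, 1.8 and 12 kb. The largest increases lay at PTDSS2, a phosphatidylserine synthase gene on 11p (11 against 3.4 kb), at SDF4 and B3GALT6 on 1p (27 against 20 kb) and at JAKMIP3 on 10q (10.2 against 3.2 kb). They were followed by DMRT1 on 9p (17 against 10.6 kb) and AXIN1 on 16p (11.2 against 4.8 kb).

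Near the ends 123 knockdown and 196 wild-type peaks were at least 20 kb wide (-37.2%), and elsewhere 476 and 726 (-34.4%). They lay at 24 ends in knockdown cells and 28 in wild-type cells. Of the 196 wide wild-type peaks none lacked a knockdown peak, where 2 of the 726 elsewhere did. Several knockdown peaks were touched by 146 (74.5%, and 65.3% elsewhere). One that was itself 20 kb or wider was touched by 106 (54.1%, and 54.1% elsewhere). Knockdown peaks covered a median of 90.5% of the length of wide wild-type peaks near the ends and 88.2% elsewhere. The widest subtelomeric knockdown peak measured 97.8 kb on 16p (chr16:657201-755000) over 12 genes, among them the ubiquitin ligase gene STUB1 and METRN. The wild-type peak there measured 138 kb. A wild-type peak of 112 kb on 11p (chr11:768801-880800), over CEND1, PNPLA2, CD151 and POLR2L, met 7 knockdown peaks, the widest of 47.2 kb, which covered 94.6% of it. At FBRSL1, P2RX2 and POLE on 12q the widths were 73.0 and 85.6 kb, and at BAHCC1, the actin gene ACTG1 and FSCN2 on 17q 72.0 and 73.0 kb. A knockdown peak of 50.2 kb over NPDC1, ENTPD2 and MAN1B1 on 9q (chr9:137040401-137090600) met 2 wild-type peaks, the wider of 28.4 kb, which together covered 98.4% of it. The widest subtelomeric wild-type peak, 148.6 kb on 11p over KCNQ1, CDKN1C and PHLDA2 (chr11:2786201-2934800), met 7 knockdown peaks, the widest of 47.6 kb, which covered 93.9% of it.

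By position, fewer subtelomeric than other peaks had their midpoint within 2 kb of a protein-coding gene end. The shares were 26.8% in knockdown cells and 24.8% in wild-type cells, against 32.3% and 32.1% elsewhere. Inside genes lay 41.98% and 45.01% of subtelomeric peaks, against 34.9% and 36.1% elsewhere, and outside them 31.2% and 30.2%, against 32.8% and 31.8%. Within 1 Mb of an end the shares near gene ends were 31.9% and 28.9%, so this difference from other peaks was smaller there.

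The fourth question was which subtelomeric genes carried the mark. Genes with a peak at most 2 kb from the annotated start or end are called marked. Of 1770 subtelomeric protein-coding genes, 1447 were marked in knockdown cells (81.8%) and 1455 in wild-type cells (82.2%). Over all 19126 autosomal genes the shares were 71.1% and 71.0%. Marked in knockdown cells alone were 38 subtelomeric genes (2.15%, against a background of 4.84% of all autosomal genes), and in wild-type cells alone 46 (2.60%, against a background of 4.73%). The length in peaks within 10 kb of either gene end, called the covered length of a gene, averaged 13.8 kb in knockdown cells and 15.7 kb in wild-type cells (-12.2%). All autosomal genes averaged 7.95 and 9.07 kb (-12.3%). A window of a gene can include peaks that lie over its neighbours.

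A covered length at least 1 kb shorter in knockdown cells was found at 927 subtelomeric genes (52.4%), where all autosomal genes had 41.3%. One at least 1 kb longer was found at 293 (16.6%), where all autosomal genes had 20.7%. More of the subtelomeric genes had long covered lengths, with 33.5% above 20 kb on average over both lists, against 10.2% of other genes. At like covered lengths the shares of shorter genes lay closer together. They were 64.2% near the ends and 60.9% elsewhere between 10 and 20 kb, and 62.6% and 65.2% above 20 kb.

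Promoters near chromosome ends were richer in CpG. For 1268 of the 1770 subtelomeric genes and 13833 of 17356 others, RefSeq gave the 300 bases from 250 before to 50 after the start. The median was 31 CpG and 69.3% G+C near the ends, and 22 CpG and 62.3% G+C elsewhere. A peak overlapped 79.3% of subtelomeric promoters in knockdown cells and 79.7% in wild-type cells, against 64.3% and 63.4% of others. Subtelomeric promoters in a peak in both lists had a median of 36 CpG, and those in neither list 6. With 30 CpG or more, 95.7% of subtelomeric promoters in knockdown cells and 94.9% in wild-type cells lay in a peak, against 91.0% and 90.5% elsewhere. With 0 to 9 CpG the shares were 37.4% and 39.9% near the ends and 22.9% and 24.5% elsewhere. The GC box GGGCGG, searched on both strands, was found in 70.0% of subtelomeric and 57.8% of other promoters. The telomere repeat unit TTAGGG, on either strand, was found in 7.26% and 8.86%.

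**Figure D4:**
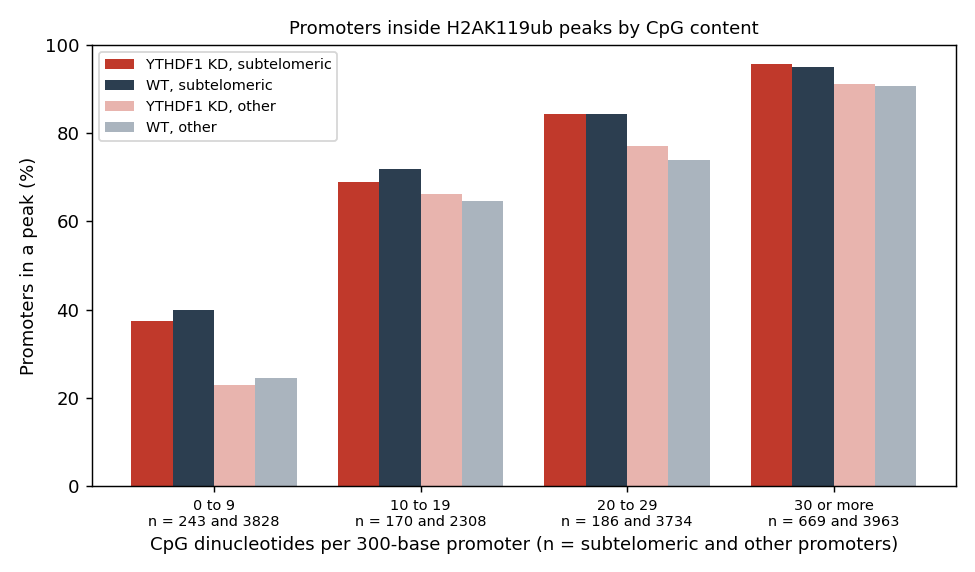
Percent of 300-base promoters that a peak overlapped, by their number of CpG dinucleotides, for subtelomeric genes (dark bars) and other genes (pale bars), knockdown left of wild type. The share climbed with CpG content to 95.7% and 94.9% of subtelomeric promoters, and the lists differed by less than 4 percentage points in every class.

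Genes were also described in 13 groups, cut down to their subtelomeric members. Longer and shorter here mean a covered length at least 1 kb longer or shorter in knockdown cells. Of all subtelomeric genes 16.6% were longer and 52.4% shorter, and of all autosomal genes 20.7% and 41.3%. Of subtelomeric genes averaging 10 to 20 kb and more than 20 kb over both lists, 64.2% and 62.6% were shorter. Marked in knockdown and wild-type cells were 81.8% and 82.2% of subtelomeric genes, and 71.1% and 71.0% of all autosomal genes. In knockdown cells alone 2.15% of subtelomeric genes were marked, and in wild-type cells alone 2.60%. Covered length cannot exceed its windows, 40 kb at most, so at genes whose windows were nearly full it misses differences farther out. The 47 transcription factor genes averaged 21.4 kb in knockdown cells and 22.2 kb in wild-type cells (-3.31%), with 45 marked in each list. Of them 9 were longer (19.1%) and 19 shorter (40.4%), and at 6 the windows were full in both lists. ONECUT3, a cut homeobox gene on 19p, had 40 kb in each list. Peaks filled its windows there, and the whole peaks measured 56.4 kb in knockdown cells and 70.0 kb in wild-type cells. KLF16 had 39.2 against 38.7 kb. SKI, which encodes a repressor of TGF-beta signalling on 1p, had 26.1 against 36.2 kb, and the whole peaks at its ends summed to 21.4 against 64.0 kb. FOXK2 had 15.4 against 5.0 kb, with 9.67 against 4.8 kb within 5 kb of its ends.

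The 34 developmental signal and receptor genes averaged 20.96 and 22.1 kb (-5.14%), with all 34 marked in both lists, 8 longer (23.5%) and 19 shorter (55.9%). AGRN, the agrin gene of the neuromuscular junction, had 36.5 kb in knockdown cells and 38.3 kb in wild-type cells, in windows of 40 kb, but the whole peaks at its ends summed to 31.8 against 83.6 kb. AXIN1, whose product belongs to the complex that degrades beta-catenin, had 30.8 against 21.8 kb. PTK6, a kinase gene, had 20.6 against 28.4 kb, with whole peaks of 10.4 against 33 kb.

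The 11 genes of the imprinted 11p15 region averaged 20.7 and 23.1 kb (-10.4%) and were all marked in both lists, 8 of them shorter (72.7%) and 1 longer (9.09%). The growth factor gene IGF2 had 32.6 against 33.8 kb, but 16.8 against 15.8 kb within 5 kb of its ends. The potassium channel gene KCNQ1 had 27.2 against 32.8 kb, and the whole peaks at its ends summed to 52 against 162.2 kb, with the 148.6 kb wild-type peak among them. NAP1L4, a histone chaperone gene, had 13.96 against 21.2 kb. The 1 longer member, TSSC4, had 16.3 against 15.1 kb, but whole peaks of 7.4 against 17.2 kb.

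The 48 neuronal genes averaged 18.8 and 21.5 kb (-12.5%), with 7 longer (14.6%) and 33 shorter (68.8%). Within 5 kb of their ends the difference was -7.73%. GRIN1, which encodes the obligatory NMDA receptor subunit, had 38.2 kb in both lists, with whole peaks of 48.2 against 52.6 kb. The decrease of 17.1 kb at PLCH2, 16.5 against 33.6 kb, was the largest of this group, and within 5 kb it was 5.40 kb. PDYN, the prodynorphin gene, had 4.25 kb against none and was marked in neither list.

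The group of 19 mucin, collagen and matrix genes averaged 15.1 and 19.7 kb (-23.2%), with 3 longer (15.8%) and 12 shorter (63.2%). MUC5B and MUC5AC, neighbouring genes of secreted airway mucins on 11p, had 5.8 against 27.2 kb and none against 10.2 kb. MUC5AC was marked in wild-type cells alone. COL18A1, a basement membrane collagen gene, had 25.6 against 34.8 kb. ADAMTS17 had 19 against 15.2 kb but 6.44 against 7.24 kb within 5 kb. The 15 haemoglobin and blood genes averaged 17.2 and 19.7 kb (-12.7%), with 2 longer (13.3%) and 11 shorter (73.3%). AZU1, a neutrophil granule gene, had 10.98 against 21.4 kb and was marked in wild-type cells alone, while the clotting factor gene F7 had 20.01 against 18.1 kb. ITGB2, the shared beta subunit of the leukocyte integrins, had 29.05 against 34.0 kb.

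The 5 genes of telomere biology that lie near chromosome ends averaged 14.5 and 18.9 kb (-23.1%), and all 5 were marked in both lists, 1 longer and 4 shorter. TERT, which encodes the catalytic subunit of telomerase on 5p, had 15.2 kb in knockdown cells and 21.03 kb in wild-type cells. The whole peaks at its ends summed to 10 against 21.6 kb. RTEL1, a telomere helicase gene on 20q, had 23.9 against 28.8 kb. SMG6, which encodes a nuclease of nonsense-mediated decay also studied at telomeres, had 16.4 against 25.4 kb. RPA1, a gene of single-stranded DNA binding, had 11.1 against 10.1 kb. Such a small group is described by these values only.

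The 63 housekeeping and metabolic genes averaged 14.8 and 17.7 kb (-16.4%), with 11 longer (17.5%) and 42 shorter (66.7%), and 61 were marked in knockdown cells and 59 in wild-type cells. The kinase gene AKT1 had 29.9 against 38.95 kb, the liver phosphofructokinase gene PFKL 18.8 against 30.2 kb, and the tubulin folding gene TBCD 20.8 against 17.4 kb. PSMB1, a proteasome subunit gene, and TBP, which encodes the TATA-binding protein, were marked in knockdown cells alone (3.17% of the group, beside 4.84% of all autosomal genes). They are neighbours on 6q, and the same 1.4 kb was counted for both.

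The 104 zinc finger genes averaged 7.83 and 9.75 kb (-19.7%), with 19 longer (18.3%) and 60 shorter (57.7%), while 82 were marked in knockdown cells and 78 in wild-type cells. Marked in knockdown cells alone were 11 (10.6%, beside 4.84% of all autosomal genes), among them ZNF543 on 19q (6.8 kb against none) and ZNF268 on 12q (5.6 kb against none). Marked in wild-type cells alone were 7 (6.73%, beside 4.73%), among them ZNF548 on 19q (none against 4.2 kb) and the 12q neighbours ZNF891 and ZNF10 (none against 3.2 kb each). The same 3.2 kb was counted for both of these neighbours. The 11 pluripotency and germline genes averaged 8.29 and 9.15 kb (-9.37%), with 2 longer and 5 shorter. The difference was -17.07% within 5 kb of their ends, and it turned to 17.02% when the lower-scoring 50% of peaks was left out. DMRT1, a gonadal transcription factor gene, had the largest increase, 30.9 against 23.9 kb. TERT, described above with the genes of telomere biology, is a member too and had the largest decrease, 15.2 against 21.03 kb.

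Families that often lie next to telomeres carried little of the mark. Of the 25 genes of subtelomeric families, 8 were marked in each list, with means of 4.32 and 4.75 kb (-8.91%). These means rested on SAMD11 (39.6 against 38.0 kb) and NOC2L (33.5 against 30.5 kb), single-copy neighbours on 1p that belong to no duplicated family. Without them 6 of 23 genes were marked in each list, the means were 1.52 and 2.18 kb (-30.2%), and 2 genes were longer and 6 shorter. FRG1 on 4q was marked in knockdown cells alone (1.4 kb) and TUBB8 in wild-type cells alone (3.2 kb). Of 59 olfactory receptor genes, 5 were marked in knockdown cells and 3 in wild-type cells, with means of 0.616 and 0.622 kb (-0.986%). The difference was 14.1% within 5 kb of their ends and -33.8% in the upper 50% of peaks by score. Covered length was equal in both lists at 51 of the 59 genes. Most of the group's length lay at the 5q neighbours OR2V2 (20.1 against 18.1 kb) and OR2V1 (8.08 against 5.8 kb). None of the 6 beta-defensin genes was marked in either list, and their means were 1.83 and 1.96 kb. All of this length lay at DEFB132 on 20p (11 against 11.8 kb). At FRG2 on 4q, of the facioscapulohumeral dystrophy region, covered length was 5.43 against 7.43 kb, and the gene was marked in neither list. Reads from near-identical copies could be split or lost in the authors' mapping, so values of these families are uncertain.

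**Figure D5:**
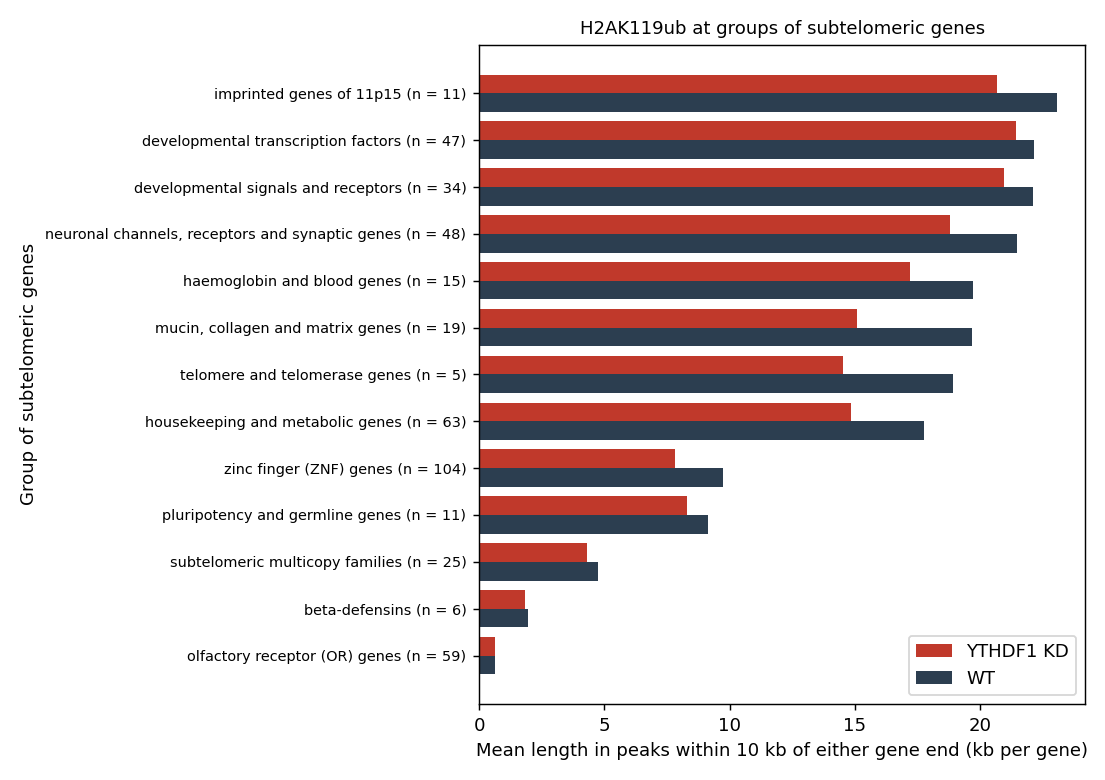
Mean length in peaks (kb per gene) within 10 kb of either gene end for 13 groups of subtelomeric genes, knockdown above wild type, with the number of genes in brackets. The developmental groups and the imprinted 11p15 genes reach 20 kb or more in both lists, where windows end at 40 kb. The olfactory receptor genes stay below 1 kb. With other settings the direction turned for the pluripotency and germline, olfactory receptor and beta-defensin genes.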

How the data were processed

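H2AK119ub ChIP-seq was analysed from 1 peak list each for YTHDF1 knockdown and wild-type H1 cells. Per the submitters' processing notes, SICER 1.1, MACS2 2.1.0, Picard, Bowtie2 2.2.5, Trimmomatic 0.35 and SAMtools 1.3.1 were used with hg38, with no role or order given. Each peak has a deposited score by the authors, from 2.00 up to 1000, of unstated unit, used only within its list. Starts and ends lay on a grid of 200 bp, with ends read as inclusive, and peaks lay at least 0.8 kb apart. The lists hold no counts, so depth is unknown.

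The 22 autosomes held 34097 knockdown and 32451 wild-type peaks. Chromosome lengths are those of hg38, and no peak or gene ran past them. Genes, promoters and their strand came from RefSeq tables of GRCh38.p14, which shares hg38 coordinates. Covered length is the number of bases in peaks. Peaks were shared with at least 1 bp in common. Gene windows were 2 kb (marked) and 10 kb (covered length). With 1 library per group no test was run. Functions were tested on simulated data. Python 3.11.15 with pandas 2.3.3 and numpy 2.4.6 was used.

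The members and gene lists were chosen with earlier results of these data known. Named genes were the 2 members with the longest covered length, those with the largest increase and decrease (1 kb or more), and members marked in 1 list alone in each group, genes of the 5 widest peaks and of the 5 largest width changes per direction, and YTHDF1. For the 4 chromosome ends with the lowest and the 4 with the highest ratio, genes with the largest differences were named after their values were seen, as were the comments on single-copy neighbours. Promoters on chromosome 8 were not considered for printing. A gene that this rule named is not reported here.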

Additional observations from a re-analysis of the deposited data

How the results depend on the processing

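The lower covered length of subtelomeric peaks in the knockdown kept its direction under the 6 alternatives tried (limits of 1 and 5 Mb, the upper 50% of peaks by score, no peaks under 2 kb, lists of equal length, and no chromosomes 19, 21 and 22). So did the width ratio, the number of wide peaks and the number of ends with less. The difference from other autosomal peaks, -1.24 percentage points, did not: it was 0.849 in the upper 50% by score, 0.788 with lists of equal length, and 0.292 as the median over chromosomes of the within-chromosome difference. It was -0.559 within 1 Mb and -1.89 without chromosomes 19, 21 and 22. The cause was not tested. The excess in peak number was 3.43% within 1 Mb, 10.05% in the upper 50% by score and 0.112% without peaks under 2 kb. Shares counted as moved when they left the 95% Wilson interval of the main share, and other values when they changed by over 1.5 times. The share of shared peaks in the knockdown and wild type was 83.1% and 76.2% within 1 Mb, 82.3% and 79.1% in the upper 50% by score, and 44.3% and 47.0% with a reciprocal overlap of 50% required. It was 78.9% within 5 Mb for the knockdown and 71.8% without peaks under 2 kb for the wild type. Peaks near gene ends made up 31.9% and 28.9% within 1 Mb, 34.7% and 33.0% in the upper 50% by score, 39.4% and 37.8% with 5 kb around gene ends, and 25.04% in knockdown cells within 5 Mb. Marked genes made up 76.0% and 76.4% within 1 Mb, 73.6% and 76.0% in the upper 50% by score, 84.2% and 84.6% without chromosomes 19, 21 and 22, and 84.6% and 84.9% with 5 kb. Among gene groups, beta-defensins (135% within 5 kb, all of it at DEFB132) and olfactory receptors (14.1% within 5 kb) turned positive. So did pluripotency and germline genes (17.02% in the upper 50% by score). Olfactory receptors were at -33.8% in the upper 50% by score, and pluripotency and germline genes at -17.07% within 5 kb. Without SAMD11 and NOC2L, an alternative chosen after seeing the data, the subtelomeric families were at -30.2%. No paired analysis was possible because each group has 1 library. Depth is unknown, so a peak found in 1 list alone does not show that the other library lacked signal there.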

Other observations

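The short-arm ends of chromosomes 13, 14, 15, 21 and 22, which were left out, held 0 knockdown and 0 wild-type peaks within 3 Mb. Whether reads can be placed there was not checked, so these counts do not show that the mark is absent. Within 100 kb of the 39 other ends, 7 of 49 knockdown and 8 of 48 wild-type peaks touched no peak of the other list. Of all subtelomeric peaks, 770 of 3978 in the knockdown and 964 of 3757 in the wild type touched none. Over all autosomal peaks, 74.1% of knockdown and 71.5% of wild-type peaks touched a peak of the other list.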
